A study of Mus musculus with 4 samples.

Results

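The genes described here encode the nuclear pore complex, and all belong to a set of 32 listed symbols for nucleoporins and their closest partners. Membership follows from the gene's name and not from a threshold on measured values, though earlier results of these data were known when the set was drawn up. One gene is listed under an old and a current symbol (Tmem48, now Ndc1), so 31 genes were found among the 20723 gene symbols of the array, and every listed gene was measured. Where a gene had more than 1 probe set, the one with the highest mean was used. That choice concerned 3 genes, Nup35, Rae1 and Ahctf1. The accession of each of the 31 genes was matched to RefSeq (GRCm38.p6) to look up its name there. For 30 genes the name in that annotation is the one on the array.

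The samples were E14 cells, an embryonic stem cell line from Ola129 mice, cultured on gelatin with 15% serum and LIF, the cytokine that maintains self-renewal. Both groups were transfected transiently with esiRNA, which is a mixture of small interfering RNAs cut by an enzyme from long double-stranded RNA. In 2 control samples the pool targeted GFP and in 2 silenced samples it targeted Ogt, and RNA was taken 48 h later. Transient transfection can leave an unknown share of cells without the pool, and each value is an average over all cells of a dish. In such bulk RNA, a change in all cells and a larger change in some of them cannot be told apart.

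The nuclear pore is the channel through which proteins and RNA pass between nucleus and cytoplasm. A scaffold of 2 kinds of ring, the outer ring of Y-shaped complexes and the inner ring, is anchored in the nuclear envelope and holds the FG nucleoporins. These carry disordered stretches rich in phenylalanine-glycine (FG) repeats, which fill the channel and bind transport receptors. Ogt adds the sugar O-GlcNAc to nuclear and cytoplasmic proteins, and the FG nucleoporins, Nup62 among them, are among its most heavily modified substrates. The modification is made on the protein. The arrays measured transcripts, and neither protein nor O-GlcNAc was measured.

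Values are log2 expression levels, and a log2 change is the mean of the silenced arrays minus that of the control arrays, so 1 unit is a 2-fold difference. The array medians lay between 6.40 and 6.46, and the 12 stem cell markers examined, such as Pou5f1 and Nanog, read between 9.30 and 13.47. The 12 markers of fibroblasts, the usual feeder cells, read between 3.29 and 9.36, with only Pdgfrb above 8. Col1a1, Col1a2, Thy1 and Fbln2 read between 6.47 and 7.39, above the array median in every array. Col3a1, Col6a1 and Pdgfra read on both sides of it, and Lum, Postn, Dcn and S100a4 near the bottom of the range. Ogt read 11.51 and 11.38 in the control arrays and 9.73 and 10.09 in the silenced arrays, which is 2.91-fold lower. Its unadjusted p was 0.00057 and its adjusted p 0.674 in limma, so the targeted gene itself did not pass over all probe sets. Mgea5 (now Oga), the enzyme that opposes Ogt, read 10.19 and 10.07 in the control arrays and 8.75 and 8.45 in the silenced arrays. That is 2.89-fold lower (unadjusted p = 0.00038 and adjusted p = 0.674 in limma). Whether the replicates were separate cultures is not stated, so each p-value rests on a spread between arrays that may be technical. With 2 arrays per group an exact permutation test cannot give a p below 0.333.

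In the fit with a term for group alone, silencing of Ogt was accompanied by no difference in any pore gene that 2 arrays per group could detect. Of the 31 genes, 0 stood at an unadjusted p under 0.05 in limma's moderated test, where 6.06% of all gene symbols did, 3.40% higher and 2.66% lower. At an adjusted p under 0.05 there were also 0 pore genes, as over the whole array (0% of symbols). The smallest unadjusted p among the pore genes was 0.0667, for Nup37, with an adjusted p of 0.685. The log2 changes ran from -0.36 (Nup37) to 0.23 (Nup188). With 15 genes higher and 16 lower, their median was -0.01, beside 0.005 over all gene symbols. The quartiles of the pore genes were -0.13 and 0.09, and those of all symbols -0.12 and 0.14.

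For each gene taken singly, these values bound the size of a difference, if the spread between arrays reflects that between cultures. The 95% confidence interval of the log2 change excluded a 2-fold difference for each of the 31 pore genes (91.1% of all symbols), and for 20 of them it excluded a 1.5-fold difference too (55.9% of all symbols). The lowest bound over the 31 intervals was -0.76 (Nup37) and the highest 0.70 (Nup153). For the other 11 genes the interval reached past 1.5-fold, and a missing call does not show equal levels. For 19 of the 31 genes the mean gap between replicates of a group was larger than the difference between the groups, as it was for 60.4% of all symbols.

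**Figure D1:**
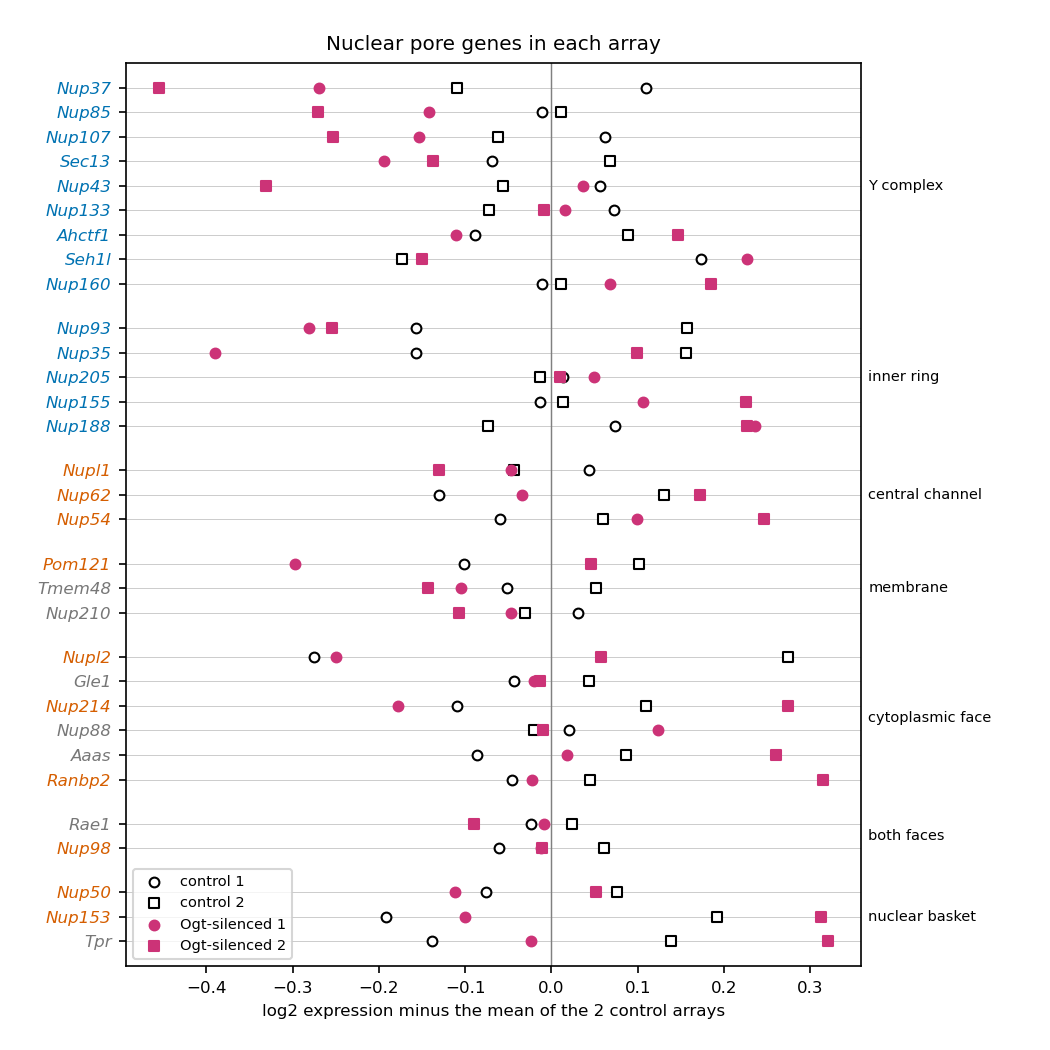
Each row is a pore gene, ordered by place in the pore and coloured by class (blue scaffold, orange FG-repeat, grey other). The horizontal axis is its log2 expression in each array minus the mean of the 2 control arrays. Circles are replicate 1 and squares replicate 2, open for control and filled for silenced. Filled and open symbols separate for 12 genes, and no silenced value lies more than 0.5 from the control mean.

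The arrays of the groups did not overlap for 12 of the 31 genes, or 38.7%, beside 39.5% of all symbols. Of these, 4 lay higher in the silenced arrays (20.0% of all symbols do) and 8 lower (19.4%). The share of separated genes was thus close to that of the array as a whole.

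The Y complex is the outer ring of the scaffold and sits on both faces of the pore. Its 9 measured genes had a median log2 change of -0.15, with 4 higher and 5 lower. Of the 9 genes, 5 were separated, 1 higher and 4 lower, beside 20.0% and 19.4% of all symbols. Nup37, a small subunit that binds Nup160 in the mammalian complex, read 9.96 and 9.74 in the control arrays and 9.58 and 9.39 in the silenced arrays. Both silenced values lay below both control values, and the log2 change was -0.36 (SE 0.15, adjusted p = 0.685 in limma). Nup85, Nup107 and Sec13 showed the same separation. Nup85 read 10.47 and 10.49 against 10.34 and 10.21 (log2 change -0.21, SE 0.12). Nup107, whose loss takes other Y complex subunits off the pore in mammalian cells, read 9.55 and 9.42 against 9.33 and 9.23 (-0.20, SE 0.13). Sec13, which also coats vesicles that leave the endoplasmic reticulum, read 10.13 and 10.27 against 10.003 and 10.06 (-0.17, SE 0.12).

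Of the other 5 Y complex genes, Nup43 also had a mean below that of the controls and 4 did not. Nup160, a subunit at the branching arms, was separated the opposite way, at 11.08 and 11.10 in the control arrays and 11.16 and 11.27 in the silenced arrays (log2 change 0.13, SE 0.12). Nup43 read 11.02 and 10.90 against 10.998 and 10.63, where the low value of 1 silenced array gives most of the change of -0.15 (SE 0.17). Nup133, at the tip of the stem, read 10.85 and 10.70 against 10.79 and 10.77, a change of 0.00 (SE 0.12). Seh1l, which also serves in a complex that regulates mTORC1, had 11.24 and 10.89 in the control group and 11.29 and 10.91 in the silenced group. In that gene the replicates of each group differed by more than 0.3 while the group means differed by 0.04 (SE 0.21). Ahctf1, or ELYS, brings the Y complex to chromatin after mitosis, and read 11.31 and 11.48 against 11.28 and 11.54 (0.02, SE 0.15). Its second, dimmer probe set gave a change of -0.06 (SE 0.16).

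The inner ring forms the core of the scaffold around the channel. Its 5 genes had a median log2 change of 0.03, and 3 of them were separated, 2 higher and 1 lower, beside 20.0% and 19.4% of all symbols. Nup188, a large subunit, read 11.14 and 10.997 in the control arrays and 11.31 and 11.30 in the silenced arrays. That is the highest change of the 31 genes, 0.23 (SE 0.12, adjusted p = 0.707 in limma). Its paralog in the ring, Nup205, read 11.35 and 11.32 against 11.38 and 11.34, a change of 0.03 (SE 0.11). Nup93, the linker that both of these large subunits bind, lay the other way, at 10.78 and 11.09 against 10.65 and 10.68 (-0.27, SE 0.16). The change of Nup93 was -0.11 without control 2 and -0.42 without control 1. Nup155, which contacts the membrane, was higher in both silenced arrays, with 10.70 and 10.73 against 10.82 and 10.94 (0.17, SE 0.12). Nup35, which also contacts the membrane, overlapped between groups, at 10.79 and 11.11 against 10.56 and 11.05 (-0.15, SE 0.23). A second probe set of Nup35 gave -0.05 (SE 0.20).

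Nup37 and Nup188 mark the ends of the range of changes, and their promoters are shown for context. Each is a window of 250 bases before to 50 after a start of transcription, from RefSeq on build GRCm38.p6, 5′ to 3′ on the gene's strand. Capitals mark matches, on either strand, to the ETS core CCGGAA, the GC box GGGCGG and the CCAAT box CCAAT. The window of Nup37, at chr10:88146742-88147041 on the plus strand, holds 2 ETS cores, 1 CCAAT box and 0 GC boxes. The window of Nup188, at chr2:30286166-30286465 on the plus strand, holds 1 GC box and neither of the others.
Nup37: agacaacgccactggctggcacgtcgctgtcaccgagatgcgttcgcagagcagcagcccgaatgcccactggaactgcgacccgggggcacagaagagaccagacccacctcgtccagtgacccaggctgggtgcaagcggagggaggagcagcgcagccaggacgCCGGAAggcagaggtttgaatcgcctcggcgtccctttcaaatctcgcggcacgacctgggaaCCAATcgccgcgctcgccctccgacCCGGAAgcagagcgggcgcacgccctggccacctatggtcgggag
Nup188: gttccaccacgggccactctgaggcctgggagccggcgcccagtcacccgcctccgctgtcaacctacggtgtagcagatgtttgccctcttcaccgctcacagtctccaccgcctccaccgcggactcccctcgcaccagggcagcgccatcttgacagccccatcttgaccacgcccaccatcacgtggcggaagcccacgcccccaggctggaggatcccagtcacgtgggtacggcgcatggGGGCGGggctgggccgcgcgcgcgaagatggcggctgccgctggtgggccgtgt

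Promoter windows were held for 27 of the 31 genes, the first listed window being used for each. Nup85, Nup43, Seh1l and Nup35 had none. Of the 27 windows, 18 held a GC box (66.7%, beside 35.9% of 27025 genes in the table) and 9 held an ETS core (33.3%, beside 15.2%). A CCAAT box stood in 10 (37.0%, beside 37.9%) and the TATA box TATAAA in 2 (7.41%, beside 14.2%). The core GCGCATGC of the NRF1 motif, searched on both strands, was present in 4 windows, those of Nup107, Nup62, Nupl1 and Nup50 (14.8%, beside 2.80% of all). These matches describe the letters of the windows, and binding was not measured. The 27025 genes were taken whatever their level in these cells, while all 31 pore genes read above the median of all probe sets. A share among genes of like level was not computed. The 4 genes with the NRF1 core had log2 changes of -0.20, 0.07, -0.09 and -0.03.

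The central channel is lined by 3 FG nucleoporins that form 1 subcomplex and carry O-GlcNAc. Nup62 read 11.17 and 11.43 in the control arrays and 11.26 and 11.47 in the silenced arrays. Its groups overlapped, and the change was 0.07 (SE 0.16, 95% confidence interval -0.36 to 0.50). Nup54 read 10.41 and 10.53 against 10.57 and 10.72, higher in both silenced arrays, with a change of 0.17 (SE 0.13). Nupl1, also named Nup58, went the other way, at 10.30 and 10.22 against 10.21 and 10.13 (-0.09, SE 0.12). The 3 partners of this subcomplex thus had no common direction.

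In the nuclear envelope the pore is held by 3 membrane proteins. The log2 changes of their genes lay between -0.13 and -0.08, with a smallest unadjusted p of 0.352 in limma's moderated fit across all probe sets and a smallest adjusted p of 0.825. Tmem48, now Ndc1, which spans the membrane several times and is needed for pore assembly, read 10.15 and 10.25 against 10.10 and 10.06 (log2 change -0.12, SE 0.12). Nup210, a glycoprotein whose level rises when mouse stem cells differentiate, read 9.40 and 9.34 against 9.33 and 9.27 (-0.08, SE 0.12). Both of these were separated and lower in the silenced arrays (19.4% of all symbols were), by less than 0.1 between the nearest arrays. Pom121, which has FG repeats as well as a membrane anchor, overlapped, at 9.83 and 10.03 against 9.63 and 9.97 (-0.13, SE 0.18), and its change was 0.05 without silenced 1.

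On the cytoplasmic face, 0 of 6 genes were separated (39.5% of all symbols were), and for each of them the gap between replicates exceeded the group difference (60.4% of all symbols). Ranbp2, which builds the cytoplasmic filaments and acts as a SUMO ligase, read 10.54 and 10.63 in the control arrays and 10.56 and 10.90 in the silenced arrays (log2 change 0.15, SE 0.16). Nup214, an FG nucleoporin, read 10.45 and 10.67 against 10.38 and 10.83 (0.05, SE 0.20). Its binding partner Nup88 read 11.32 and 11.28 against 11.42 and 11.29 (0.06, SE 0.12). Gle1 stimulates the helicase that strips export factors from messenger RNA, and had the smallest gap of these genes, at 9.98 and 10.07 against 10.01 and 10.01 (-0.02, SE 0.12). Nupl2, an FG nucleoporin that binds Gle1, was the dimmest pore gene and the one with the widest standard error, at 7.31 and 7.86 against 7.34 and 7.65 (-0.10, SE 0.24). Aaas, the gene for aladin, was the brightest, at 11.99 and 12.16 against 12.09 and 12.33 (0.14, SE 0.15).

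Nup98 and Rae1 bind each other on both faces and take part in messenger RNA export. Nup98 read 11.66 and 11.78 in the control arrays against 11.71 and 11.71 in the silenced arrays, a change of -0.01 (SE 0.12). Its transcript also encodes the Y complex subunit Nup96, which is cut from the same precursor. Rae1 read 10.92 and 10.96 against 10.93 and 10.85 (-0.05, SE 0.12), and its dimmer probe set gave -0.09 (SE 0.12). In the nuclear basket, which reaches into the nucleoplasm, Nup153 read 11.21 and 11.59 against 11.30 and 11.72 (0.11, SE 0.22). Tpr, the filament protein of the basket, read 10.47 and 10.74 against 10.58 and 10.93 (0.15, SE 0.19). Nup50, a cofactor of import, read 11.37 and 11.52 against 11.34 and 11.50 (-0.03, SE 0.14). In the 3 basket genes the second replicate of either group read higher than the first, and the groups overlapped.

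**Figure D2:**
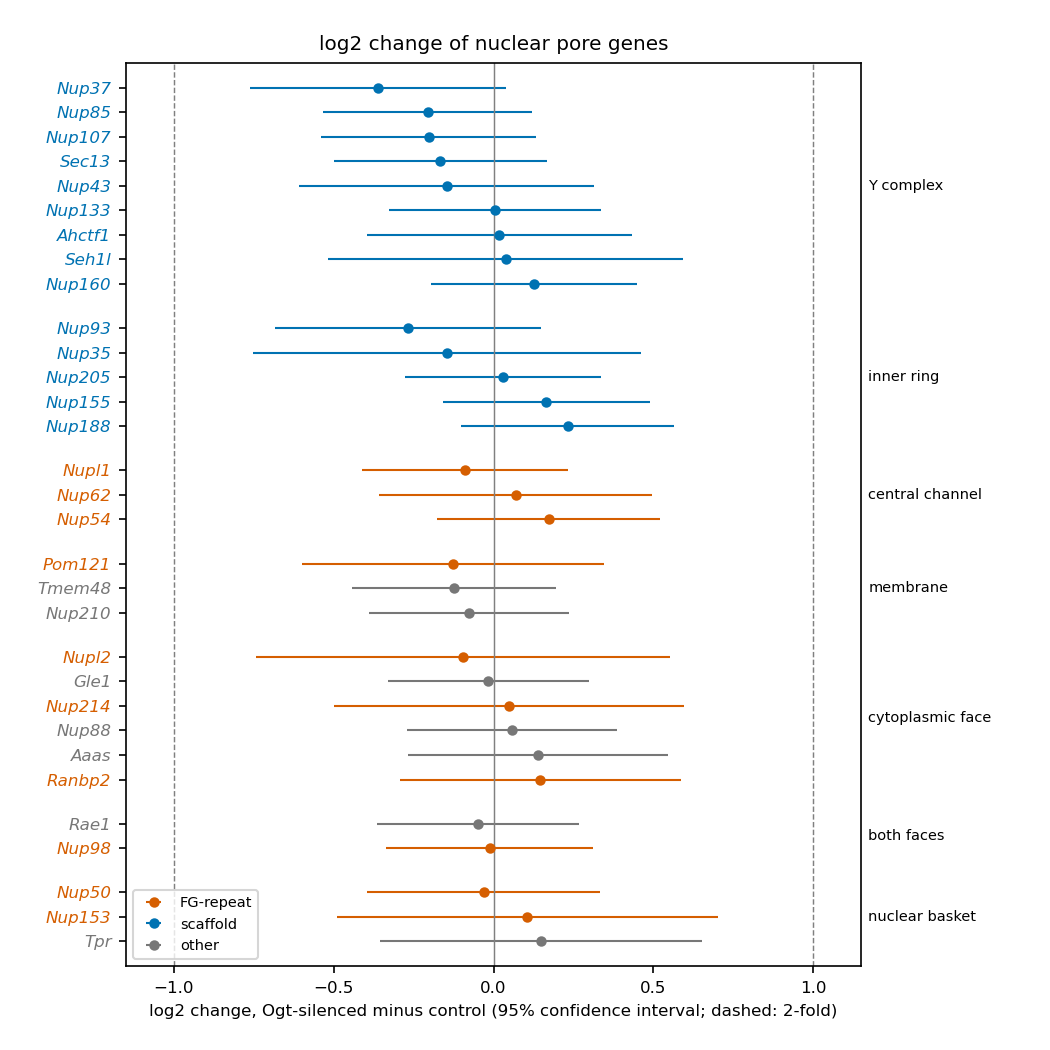
Points are the log2 change of each pore gene, silenced minus control (horizontal axis), with its 95% confidence interval from limma and 2 arrays per group. Dashed lines mark a 2-fold difference in either direction. Every interval includes 0 and lies inside the dashed lines.

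FG nucleoporins, the main sugar-modified part of the pore, were compared with the scaffold. The FG-repeat class held 10 genes (Nup62, Nup54, Nupl1, Nup98, Nup153, Nup50, Nup214, Ranbp2, Nupl2 and Pom121) and the scaffold class the 14 genes of the Y complex and inner ring. Classes were assigned from general knowledge of the proteins. The other 7 genes form neither class. The median log2 change of the FG-repeat class was 0.02, with 5 genes on each side of 0 and a range from -0.13 to 0.17. That of the scaffold class was -0.07, with 7 genes on each side and a wider range, from -0.36 to 0.23. The medians of both classes lay between the quartiles of all symbols.

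Averaged over its genes, the FG-repeat class read 10.42 and 10.63 in the control arrays and 10.43 and 10.66 in the silenced arrays. The scaffold class read 10.74 and 10.73 in the control arrays and 10.68 and 10.67 in the silenced arrays. Both silenced scaffold means thus lay below both control means, by 0.05 at the nearest, while the FG means overlapped. The array medians, between 6.40 and 6.46, differed by a like amount, and means of other gene sets were not compared. Within an array, the FG mean minus the scaffold mean was -0.32 and -0.11 in the control group and -0.25 and -0.01 in the silenced group. The groups overlapped in this difference, which shifted by 0.08 between groups whose replicates had an SD of 0.15 and 0.17. Between arrays of the same number, the silenced value was the higher one for both numbers. The labels do not say what such arrays share, and this shift was not tested.

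The difference of the median changes, FG-repeat minus scaffold, was 0.09. A related quantity, the median FG level of an array minus its median scaffold level, had a pooled SD of 0.14 between replicates. The difference of the median changes depended on single arrays. A fit without 1 array also leaves the replicate numbers unequal between groups. Replicate 2 read higher in both groups for 9 of the 10 FG-repeat genes and 6 of the 14 scaffold genes. Without control 2 the difference of the median changes was 0.25, without silenced 1 it was 0.19, without control 1 it was 0.01, and without silenced 2 it was -0.026. With Nup35, which has a few FG pairs of its own, left out of the scaffold it was 0.015. The silenced groups were separated from the controls in 2 of 10 FG-repeat genes and in 8 of 14 scaffold genes, 3 of them higher and 5 lower, beside 39.5% of all symbols. No p is given for either class, since the genes were chosen with earlier results known.

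**Figure D3:**
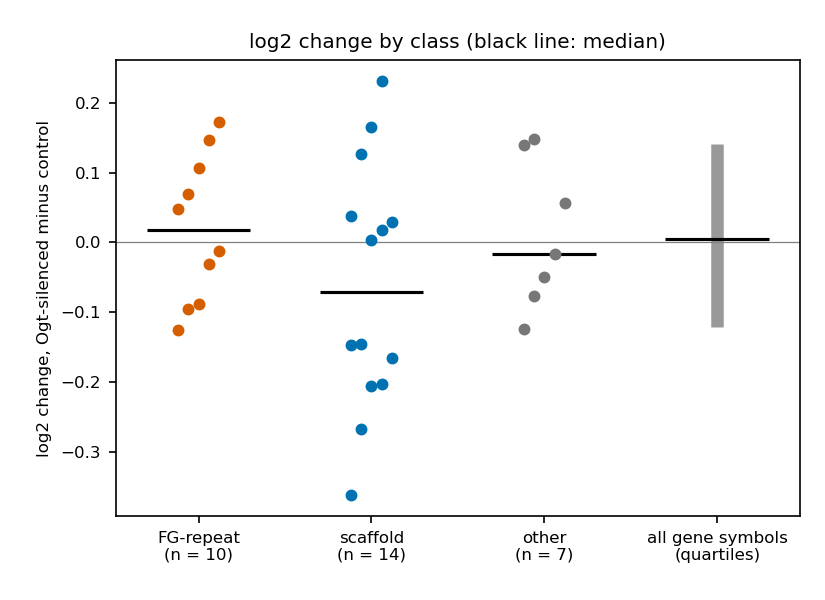
The vertical axis is the log2 change, silenced minus control, of each pore gene (points) by class, with the class median as a black line. The grey bar spans the quartiles of all gene symbols, -0.12 to 0.14. The class medians, 0.02, -0.07 and -0.02, lie inside it.

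The gap between replicates exceeded the group difference in 8 of the 10 FG-repeat genes and 6 of the 14 scaffold genes. In 9 of the 10 FG-repeat genes replicate 2 read above replicate 1 in both groups, by a margin of 0.001 in the silenced group for Nup98. The exception, Nupl1, read lower in both. Among all symbols 32.6% read higher and 35.6% lower in replicate 2 of both groups. In the scaffold class the counts were 6 higher and 7 lower in both. The median gap of the FG-repeat genes was 0.18 in the control group and 0.26 in the silenced group, and that of the scaffold genes was 0.00 and -0.02. The widest gaps were those of Nupl2 (0.55 in the control group), Nup35 (0.49 in the silenced group) and Nup214 (0.45 in the silenced group). The labels do not say what the arrays of a number share, and these gaps were not tested.

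**Figure D4:**
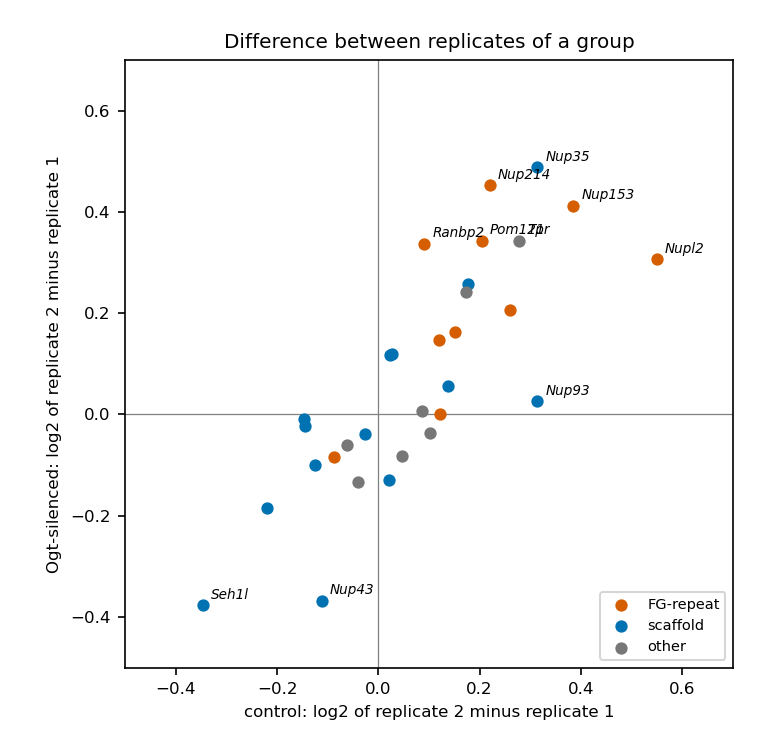
For each pore gene, the log2 value of replicate 2 minus that of replicate 1 is shown for the control group (horizontal axis) and the silenced group (vertical axis). Genes with a gap above 0.3 are named. FG-repeat genes (orange) lie in the upper right, Nup98 at its edge, with the exception of Nupl1, while scaffold genes (blue) lie on both sides of 0.

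The pore works with soluble receptors, the Ran cycle and the proteins of the nuclear envelope, and 61 such partner genes in 7 lists, also drawn up with earlier results known, were measured in the same fit. Of these, 6 stood at an unadjusted p under 0.05, or 9.84%, beside 6.06% of all symbols, and 0 at an adjusted p under 0.05. They were 4 higher and 2 lower, beside 3.40% and 2.66% of all symbols. Over the 61 genes the median log2 change was 0.08, with 41 higher and 20 lower. Of all 20723 symbols, 10601 were higher and 10122 lower. Intervals lay within a 2-fold difference either way for 59 of the 61, the others being Nxt2 and Ipo13, the latter named after its values were seen.

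The largest difference was that of Nxt2, a partner of the NXF receptors that carry messenger RNA through the pore. It read 8.95 and 8.66 in the control arrays and 7.25 and 7.12 in the silenced arrays, 3.08-fold lower (log2 change -1.62, SE 0.16, adjusted p = 0.674 in limma). In the same list of 8 genes for messenger RNA export, Pcid2, a subunit of the TREX-2 complex at the basket, read 9.78 and 9.81 against 10.14 and 10.13 (0.34, SE 0.11, adjusted p = 0.674 in limma). With 4 higher and 4 lower, the median of this list was -0.04.

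Nup210l, the paralog of Nup210 that is known from testis, was dim in the control arrays, at 6.56 and 6.63, and read 7.29 and 7.13 in the silenced arrays. Both silenced values were higher, by 0.62 on the log2 scale (SE 0.13, adjusted p = 0.674 in limma), while Nup210 itself had a change of -0.08 with an interval of -0.39 to 0.24. These values are of the brightest of its 9 probe sets. The other 8 were dimmer, with values between 4.59 and 6.58 on the same arrays, and also gave changes above 0, from 0.01 to 0.56. Of these 8, 3 stood at an unadjusted p under 0.05 in limma, beside 6.06% of all symbols. The mean of all 9 changed by 0.32. The list of 3 tissue-restricted paralogs had 2 higher and 1 lower. Its name does not mean that all 3 were dim here. Nup62cl, named after its values were seen, read 11.20 and 11.33 against 11.50 and 11.62 (log2 change 0.30, SE 0.13).

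The lamina and inner membrane list had a median of 0.02, with 9 genes higher and 5 lower. Lmnb2, which encodes a B-type lamin, read 9.001 and 9.13 against 8.70 and 8.37 (log2 change -0.53, SE 0.16, adjusted p = 0.674 in limma). Lemd2, an inner membrane protein with a LEM domain, lay the other way, at 8.86 and 8.78 against 9.11 and 9.29 (0.38, SE 0.13). Lmnb2 was thus lower and Lemd2 higher in both silenced arrays.

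Of 18 importin genes, which encode import receptors and adaptors, 14 were higher and 4 lower, with a median of 0.11. Kpna1, an importin alpha, read 10.19 and 10.20 against 10.48 and 10.54 (log2 change 0.31, SE 0.12, unadjusted p = 0.0474 and adjusted p = 0.674 in limma). All 7 exportin genes had log2 changes above 0, with a median of 0.10, where 10601 of all 20723 symbols were higher. At an unadjusted p under 0.05 in limma stood 0 of the 7, beside 6.06% of all symbols. For 5 of the 7 the gap between replicates exceeded the change, as for 60.4% of all symbols. Xpo4 had the smallest p of the exportins, with 9.35 and 9.42 against 9.64 and 9.87 (0.37, SE 0.14). Among the 7 genes of the Ran cycle, which gives transport its direction, 3 were higher and 4 lower, with a median of -0.05. Rangrf, a Ran-binding factor, had the smallest p there, at 9.97 and 9.95 against 9.69 and 9.26 (-0.49, SE 0.19), and its other 2 probe sets gave -0.54 and -0.16. The SUMO list had 2 higher and 2 lower, and Senp2, a SUMO protease of the basket, read 9.71 and 9.61 against 9.91 and 9.92 (0.25, SE 0.12).

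Leaving out 1 array lowers the degrees of freedom of the fit, and the count of 6 partner genes changed with it. It was 2 without control 1, without control 2 or without silenced 2, where 2.78%, 1.80% and 3.12% of all symbols stood at that level, and 7 without silenced 1, where 6.21% did. Nxt2 and Nup210l were among the genes counted in each of these fits, and Kpna1, Pcid2 and Lemd2 in none of them. Across these fits the log2 change of Kpna1 stayed between 0.29 and 0.34 and that of Pcid2 between 0.32 and 0.35.

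**Figure D5:**
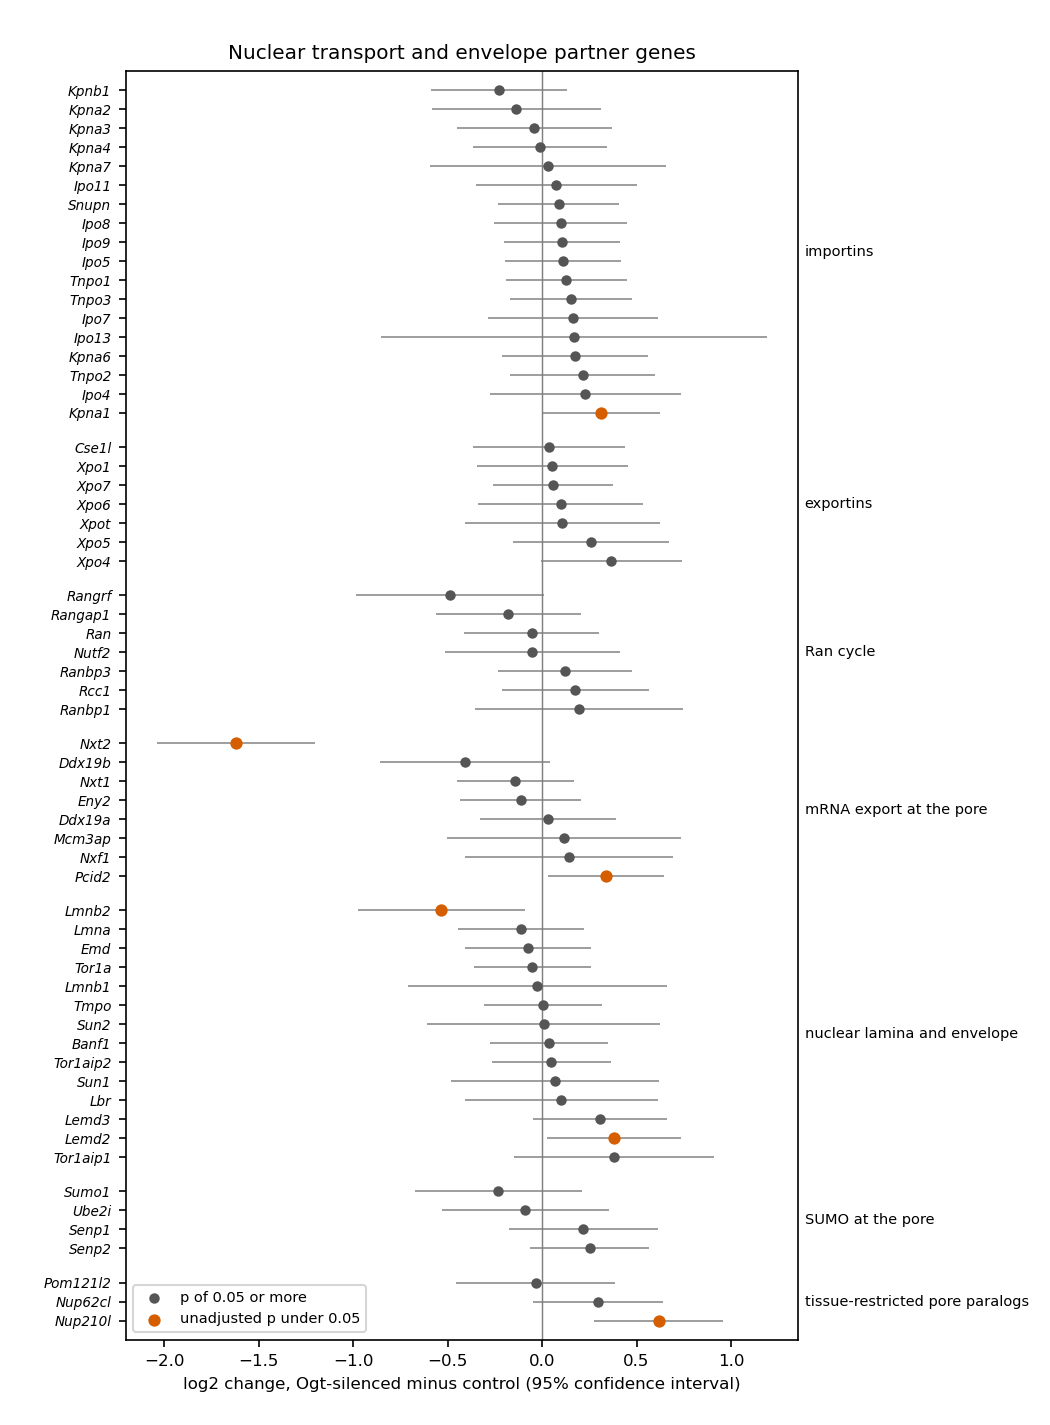
Points are the log2 change of each of the 61 partner genes, silenced minus control (horizontal axis), with 95% confidence intervals from limma, grouped by list. Orange marks the 6 genes at an unadjusted p under 0.05, and Nxt2, at -1.62, lies farthest from 0.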

How the data were processed

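Total RNA of 4 samples, 2 per group, was hybridised to one-colour Affymetrix arrays after conversion of 150 ng to labelled cDNA, per the labels' protocols. The deposited values are log2 expression per probe set, made by the authors with RMA, and the authors' deposited table adds log2 fold changes and p-values from limma, per the submitters' processing notes. RMA equalises the arrays' distributions, so a shift shared by most genes would not be seen. No source used here names the versions, array type or genome build.

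A model with a term for group was fitted to all 34760 probe sets with limma 3.58.1 (R 4.3.3; lmFit, eBayes), and p-values were adjusted over all of them (Benjamini-Hochberg). The fit has 2 residual degrees of freedom (4.38 after moderation) and gave the deposited p-values to within 4.84e-08. Shares of all symbols use the brightest probe set of each gene. The fit was tested on simulated data. The number of arrays limits the precision. Batches were not examined, since no scan date or slide is given.

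The pore genes, classes and partner lists were chosen with earlier results of these data known. All pore genes are named, with Ogt, Mgea5, every partner at an unadjusted p under 0.05 and otherwise the 1 gene per list with the smallest p. Ipo13 and Nup62cl were named after their values were seen. Alternatives were array centring, quantile normalization, a level filter, a variance trend, a robust prior, the replicate number as a block, averaging of a gene's probe sets, a threshold of 0.01, other class summaries and boundaries, and leaving out each array in turn.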

Additional observations from a re-analysis of the deposited data

How the results depend on the processing

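The counts of pore genes at an unadjusted p under 0.05 stayed at 0 under centring, quantile normalization, the level filter (which kept 31 of 31 genes), a variance trend, a robust prior, averaging of probe sets, the threshold of 0.01 and each fit without 1 array. A replicate block, for which the labels give no more than a shared number, gave 1, Nup37, where 13.4% of all symbols stood at that level. Deviations of same-numbered arrays correlated at 0.48 across probe sets. The adjusted count was 0 in every setting, from 0 to 0 without 1 array. The median change of the pore genes lay between -0.06 and 0.03 without 1 array and at 0.01 after quantile normalization. The FG-repeat minus scaffold difference lay between -0.026 and 0.25 without 1 array and at 0.08 with means. It was 0.12 with Nup98 left out and 0.015 with Nup35 left out, both added after seeing the data, and kept its sign under the other alternatives. Setting the FG class by counting dipeptides was not run, since protein sequences were not used here. Separated pore genes numbered 20 to 23 without 1 array, since a lone array overlaps less often (67.0% to 72.8% of all symbols). Partner genes numbered 2 to 7 without 1 array, 10 with the replicate block, 9 with a variance trend, 8 with averaged probe sets and 2 at a threshold of 0.01. The count stayed at 6 after centring, with Xpo4 in place of Kpna1, and after quantile normalization, with Rangrf and Ddx19b in place of Kpna1 and Lemd2. A lone array is assumed to vary like the other group. Of the 31 pore genes, 15 kept the sign of their change in every alternative and 16 did not.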
